A study of Homo sapiens with 4 samples.

Results

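Aminoacyl tRNA synthetases are the enzymes that attach each amino acid to its tRNA, and 37 of 58735 genes in the deposited table were taken as members by gene symbol. They comprise 20 genes of cytosolic enzymes (symbols without a final 2), 16 genes of mitochondrial enzymes (symbols ending in 2) and AIMP1, which encodes a scaffold and not an enzyme. All 37 members were found, and all 37 passed the filter on low counts. The libraries came from the ovarian cancer line Hey-A8, with 2 shSPTLC2 libraries and 2 shCON libraries of total RNA. By their titles and genotypes, shSPTLC2 cells carried a hairpin against SPTLC2 in a stable knockdown, and shCON cells carried a negative control hairpin. The treatment protocol instead describes hairpin plasmids against ZDHHC15 beside a scrambled hairpin, transiently transfected, with harvest at 36 h, so the labels conflict on the target. All cells grew in the same serum-containing medium, and no label says whether a line was 1 clone or whether the replicates were separate cultures. Every p-value therefore measures only the spread between these libraries, which may be technical.

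Charged tRNAs are the substrate of every ribosome. Nuclear genes encode both sets of synthetases: the cytosolic set serves translation of nuclear messenger RNAs, and the mitochondrial set is imported and serves the few proteins that mitochondria make themselves. In mammals GARS and KARS each yield both a cytosolic and a mitochondrial form, and EPRS joins the glutamyl and prolyl enzymes in 1 protein. Several cytosolic enzymes sit in a multisynthetase complex held together by the AIMP scaffolds. The transcription factor ATF4, which is made when the initiation factor eIF2 is phosphorylated in stress, is known to drive many cytosolic synthetase genes through C/EBP-ATF response elements.

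The promoters that hold an exact C/EBP-ATF element are shown because that element is the known link of synthetase genes to ATF4. RefSeq promoters (build GRCh38.p14, 250 bases before to 50 after the start) were matched for 31 of the 37 members, and those of DARS, LARS, VARS, YARS, AARS2 and VARS2 were not matched. The letters TGATGCAA, searched on both strands, were present in the promoters of 6 of 16 cytosolic genes (37.5%), in 0 of 14 mitochondrial genes and in 304 of 34943 promoters of the same length overall (0.87%). Capitals below mark the match, which reads TTGCATCA where it lies on the other strand, and each window is written 5′ to 3′ on the strand of the gene.
AARS (chr16:70289646-70289726, minus strand): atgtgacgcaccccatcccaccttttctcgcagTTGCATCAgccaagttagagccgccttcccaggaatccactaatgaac
CARS (chr11:3057399-3057483, minus strand): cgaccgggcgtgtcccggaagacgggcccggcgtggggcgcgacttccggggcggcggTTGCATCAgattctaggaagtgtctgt
IARS (chr9:92293673-92293757, minus strand): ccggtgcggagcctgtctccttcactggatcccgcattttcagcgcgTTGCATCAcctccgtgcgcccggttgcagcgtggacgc
MARS (chr12:57488008-57488092, plus strand): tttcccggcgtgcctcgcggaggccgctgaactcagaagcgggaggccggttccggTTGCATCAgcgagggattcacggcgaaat
NARS (chr18:57621812-57621896, minus strand): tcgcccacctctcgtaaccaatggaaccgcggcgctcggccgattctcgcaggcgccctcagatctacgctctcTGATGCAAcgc
TARS (chr5:33440905-33440989, plus strand): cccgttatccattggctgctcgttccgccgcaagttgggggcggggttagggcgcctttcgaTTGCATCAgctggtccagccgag

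The match began at base -187 of AARS, -13 of IARS, -4 of MARS, -2 of CARS, 3 of TARS and 15 of NARS, counted from the RefSeq start as base 1. With any base allowed at its sixth position (TGATGNAA), the element was in the same 6 cytosolic promoters, in 1 of 14 mitochondrial promoters (YARS2, 7.14%) and in 3.62% of all promoters. The core motif of the factor NRF1, which contains none of the other motifs searched, was in 0 of 16 cytosolic promoters, in 1 of 14 mitochondrial ones (MARS2) and in 1.23% of all. The E-box CACGTG was in 1 of 16 cytosolic promoters (IARS), in 3 of 14 mitochondrial ones (CARS2, EARS2 and MARS2) and in 7.23% of all. A match describes letters in a window and is not evidence of binding.

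Total counts ran from 14464800 to 15085000 per library. SPTLC2, the labelled target, had 39.9 and 43.1 CPM (counts scaled to the TMM-adjusted library size) in shSPTLC2 libraries, against 58.7 and 60.7 CPM in shCON libraries, a log2 fold change of -0.52 ± 0.12 (SE; adjusted p = 0.00627). SPTLC2 lost its call when shSPTLC2 replicate 1 or 2 was left out (adjusted p = 0.134 and 0.0519). ZDHHC15 had 0 counts in every library, which allows up to 0.206 CPM. Markers of carcinoma cells summed to 2853 to 2892 CPM in shSPTLC2 and 2529 to 2622 CPM in shCON, with KRT7, KRT8, KRT18 and PAX8 abundant, CDH1 at 0 and EPCAM and MUC16 below 1 CPM. Mesenchymal markers (VIM, CDH2 and FN1) summed to 5669 to 6019 and 6078 to 6437 CPM, and none (0 of 3) was called with all 4 libraries. With 1 library left out, the log2 fold change ran from -0.29 to -0.10 for VIM and -0.25 to -0.036 for CDH2. That of FN1 ran from -0.079 to 0.40, and VIM and FN1 did not stay uncalled throughout. The 4 immune markers summed to under 1 CPM, with CD3E at 0, and VWF was at 0.680 and 0.912 CPM in shSPTLC2, against 0.944 and 1.51 CPM in shCON. The endothelial marker CDH5 was present and rose, with 109 and 130.3 CPM in shSPTLC2, against 57.2 and 55.2 CPM in shCON, while the endothelial marker PECAM1 fell, with 0.408 and 0.782 CPM in shSPTLC2, against 2.09 and 1.85 CPM in shCON (adjusted p = 0.018). The call of PECAM1 was lost when shSPTLC2 replicate 1, shSPTLC2 replicate 2 or shCON replicate 1 was left out (adjusted p = 0.212, 0.054 and 0.0544). The carcinoma markers PAX8 and MSLN rose (0.73 ± 0.11 and 0.61 ± 0.16). MSLN lost its call after a GC content correction without and with a replicate block (0.34 in both, adjusted p = 0.152 and 0.179), in DESeq2 (0.072) and when shSPTLC2 replicate 1 or 2 was left out (0.125 and 0.128). Transcripts encoded by mitochondrial DNA took 10.1% and 8.56% of counts in shSPTLC2 replicates 1 and 2, against 5.46% and 6.39% in shCON replicates 1 and 2, and their part in the results was not tested. In bulk RNA of this kind, fewer cells of a type and less RNA per cell cannot be told apart.

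The comparison of shSPTLC2 with shCON asks how the 2 sets of synthetase transcripts stood in cells with the SPTLC2 hairpin. Of 20 cytosolic enzyme genes, 9 fell, 0 rose and 11 were not called. Over all 37 members 12 were called, against 19.4% of all tested genes in either direction. Of 16 mitochondrial enzyme genes, 1 fell, 2 rose and 13 were not called. Among all 15313 tested genes, 9.00% were called lower and 10.4% higher. Within the CPM range of the cytosolic set, 16.9% of 2367 genes were called lower and 8.45% higher. The 9 of 20 (45%) stands above both shares called lower. The mitochondrial counts (6.25% lower, 12.5% higher) lie near the shares of all tested genes. A call is a Benjamini-Hochberg adjusted p under 0.05, over all tested genes, from the quasi-likelihood test of edgeR.

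The median log2 fold change was -0.29 for the cytosolic genes, -0.13 for the mitochondrial genes and 0.005 for all tested genes. All but 1 of the 20 cytosolic values were negative (19 of 20), against 9 of 16 mitochondrial values and 7583 of 15313 overall. In 18 of 20 cytosolic genes both shSPTLC2 libraries lay below both shCON libraries, as they did in 8 of 16 mitochondrial genes and 30.2% of all genes. The opposite order held for 0 of 20 cytosolic genes, 2 of 16 mitochondrial genes and 31.3% of all genes. Of the 2367 tested genes within the CPM range of the cytosolic set, 1469 had negative values. In 1046 of them both shSPTLC2 libraries lay below both shCON libraries, and 548 had the opposite order. Summed over the cytosolic genes, levels were 3939 and 4238 CPM in shSPTLC2, against 5349 and 5062 CPM in shCON. For the mitochondrial genes the sums were 502 and 519 CPM in shSPTLC2, against 539.6 and 528 CPM in shCON. The difference between the sets was described and not tested.

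**Figure D1:**
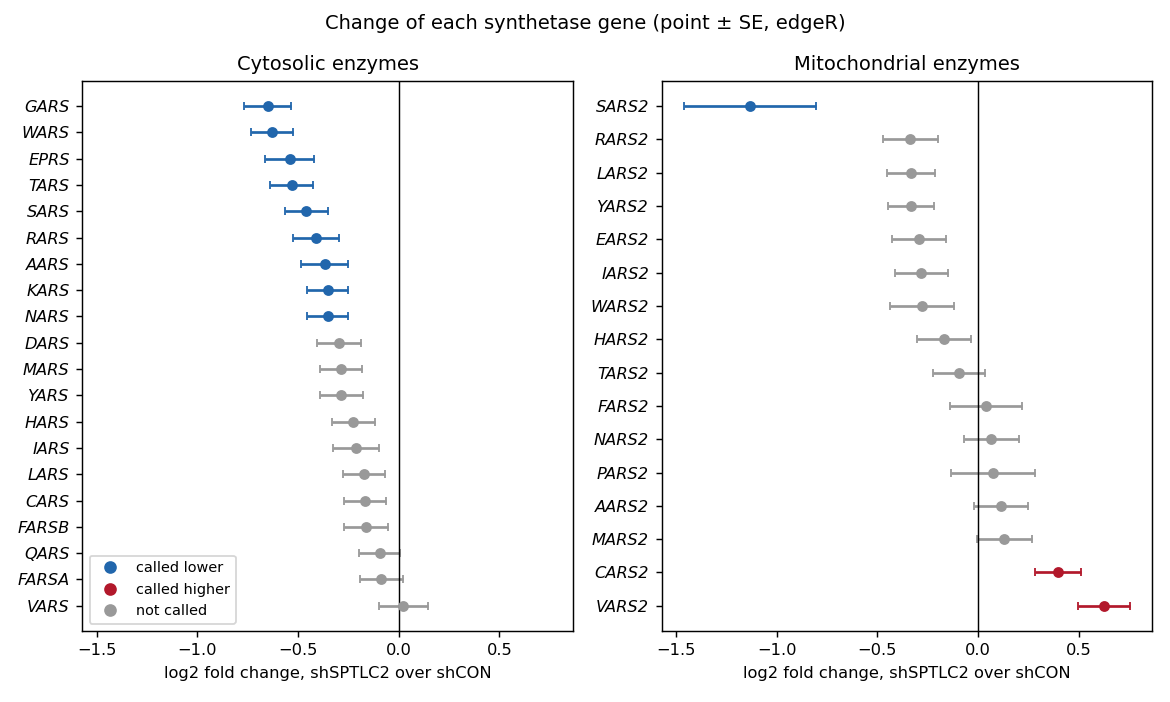
Log2 fold change of each cytosolic (left) and mitochondrial (right) synthetase gene, shSPTLC2 over shCON, as point and SE from 2 libraries a group. The cytosolic values run from -0.65 (GARS) to 0.02 (VARS), and 9 are called lower, while the mitochondrial values lie on both sides of 0, from -1.13 (SARS2) to 0.63 (VARS2).

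The 9 cytosolic calls were lost in whole or in part when 1 shSPTLC2 library was left out. Calls over all tested genes were also fewer with only 1 library in that group. With shSPTLC2 replicate 1 left out, 0 of the 9 were called, with adjusted p from 0.0567 (WARS) to 0.44 (AARS). With shSPTLC2 replicate 2 left out, 3 of the 9 were called (GARS, WARS and EPRS). The lowest value of the 4 libraries was in shSPTLC2 replicate 1 for 16 of 20 cytosolic genes and in shSPTLC2 replicate 2 for 3. For the mitochondrial genes these counts were 6 and 5 of 16. The share over all tested genes is not given here, so these counts have no background. The cytosolic median stayed negative in both cases, at -0.25 with replicate 1 left out and -0.35 with replicate 2 left out.

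GARS (ENSG00000106105, hg38 chromosome 7, 30594681 to 30634033), which charges glycine tRNA in both compartments, was among the called genes. It had 323 and 372 CPM in shSPTLC2, against 582 and 509.8 CPM in shCON. The groups did not overlap, and the log2 fold change was -0.65 ± 0.12 (SE; adjusted p = 0.00148), a fall by 36.3%. WARS (ENSG00000140105, chromosome 14, 100333788 to 100376805) charges tryptophan tRNA and is known as an interferon-induced gene. It had 171 and 180.5 CPM in shSPTLC2, against 281 and 263 CPM in shCON. Both shSPTLC2 libraries were lower by similar amounts, at -0.63 ± 0.10 (adjusted p = 8.52e-04).

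EPRS (ENSG00000136628, chromosome 1, 219968601 to 220046658), the joint glutamyl and prolyl enzyme of the complex, had 181 and 233 CPM in shSPTLC2, against 314 and 289 CPM in shCON. Its shSPTLC2 libraries differed more from each other than those of WARS, and it stood at -0.54 ± 0.12 (adjusted p = 0.00641). TARS (ENSG00000113407, chromosome 5, 33440696 to 33469539), for threonine, had 307 and 321 CPM in shSPTLC2, against 476 and 431 CPM in shCON. SARS (ENSG00000031698, chromosome 1, 109213918 to 109238169), for serine, the amino acid that serine palmitoyltransferase also uses, had 284 and 301 CPM in shSPTLC2, against 389.9 and 413 CPM in shCON. Neither gene's groups overlapped. TARS changed by -0.53 ± 0.11 and SARS by -0.46 ± 0.11 (adjusted p = 0.00336 and 0.00717).

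The other 4 called genes changed by less. RARS (chromosome 5, 168486445 to 168519299), the arginine enzyme of the complex, had 96.8 and 104 CPM in shSPTLC2, against 146 and 121 CPM in shCON (-0.41 ± 0.12, adjusted p = 0.0212). Its call was also lost without shCON replicate 1 (-0.28, adjusted p = 0.0563), the shCON library in which it was high. AARS (chromosome 16, 70252295 to 70289543), for alanine, had 204 and 249.9 CPM in shSPTLC2, against 282 and 303 CPM in shCON (-0.37 ± 0.12, adjusted p = 0.0361).

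KARS (chromosome 16, 75627474 to 75648643), for lysine, serves both compartments and belongs to the complex. It had 142 and 141 CPM in shSPTLC2, against 181 and 179.9 CPM in shCON (-0.35 ± 0.10, adjusted p = 0.0238). NARS (chromosome 18, 57600656 to 57622213), for asparagine, had 154 and 160.0 CPM in shSPTLC2, against 202 and 199 CPM in shCON (-0.35 ± 0.10, adjusted p = 0.0242). In both genes the libraries of a group lay close together. The calls of AARS, KARS and NARS were lost with library totals in place of TMM (adjusted p = 0.0718, 0.0574 and 0.0583) and after a correction for transcript GC content (0.0604, 0.077 and 0.0634).

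Of the 11 cytosolic genes that were not called, 10 had negative values, and 9 had both shSPTLC2 libraries below both shCON libraries. Over all tested genes 30.2% lay below in this way and 31.3% lay above. MARS, for methionine, had 268 and 289 CPM in shSPTLC2, against 337 and 342 CPM in shCON (-0.29 ± 0.10, adjusted p = 0.0643). YARS, for tyrosine, had 269.7 and 254 CPM in shSPTLC2, against 331 and 308 CPM in shCON (-0.29 ± 0.10, adjusted p = 0.0685). DARS, the aspartate enzyme of the complex, had 81.8 and 90.5 CPM in shSPTLC2, against 111 and 101 CPM in shCON (-0.30 ± 0.11, adjusted p = 0.0727). In these 3 genes both shSPTLC2 libraries were low, and the 95% intervals of the log2 fold change lay below 0, from -0.53 to -0.06 for DARS, before adjustment over all genes. MARS shares 5.05% of its exon bases with DDIT3 on the opposite strand, whose reads could not be told apart without strand.

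IARS, the isoleucine enzyme of the complex, had 448 and 484 CPM in shSPTLC2, against 576 and 504 CPM in shCON (-0.21 ± 0.11, adjusted p = 0.198). HARS (histidine), LARS (leucine), CARS (cysteine) and FARSB (a phenylalanine enzyme subunit) had values of -0.23, -0.17, -0.17 and -0.16. FARSA, the other phenylalanine subunit, stood at -0.09 ± 0.11 and QARS, for glutamine, at -0.09 ± 0.10. VARS, the valine enzyme, which binds elongation factor 1, had 227 and 236 CPM in shSPTLC2, against 257 and 199 CPM in shCON. Its shSPTLC2 libraries lay between the shCON libraries, and its log2 fold change was 0.02 ± 0.12 with a 95% interval of -0.23 to 0.28. After the GC content correction VARS stood at -0.17 (adjusted p = 0.328).

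**Figure D2:**
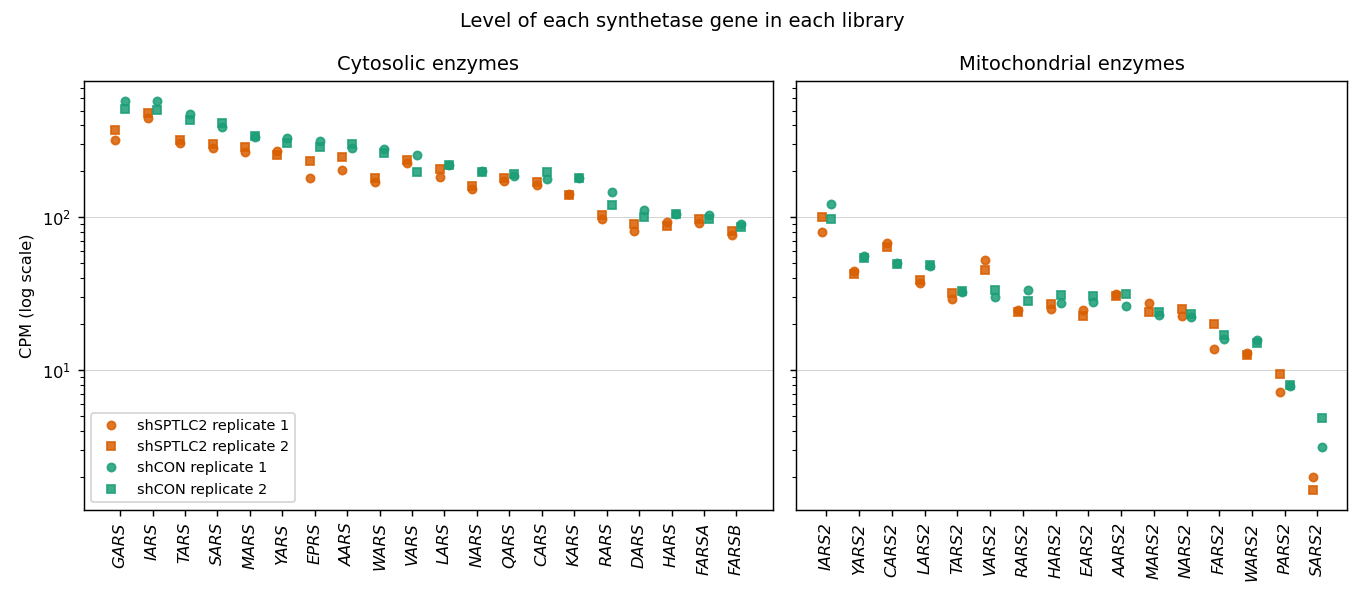
Level of each synthetase gene in CPM (log scale) in each of the 4 libraries, shSPTLC2 in orange and shCON in green, genes ordered by their shCON mean. Most cytosolic genes have both shSPTLC2 libraries below both shCON libraries (18 of 20). The mitochondrial genes are mostly at lower CPM, and this order holds in 8 of 16 of them and the opposite order in 2.

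Per gene length, the cytosolic transcripts were the more abundant set. The authors' FPKM (fragments scaled by gene length and depth), averaged over the 4 libraries, ran from 12.3 (HARS) to 107 (GARS) in the cytosolic genes with a median of 39.1. In the mitochondrial genes it ran from 0.885 (SARS2) to 23.9 (IARS2) with a median of 6.58. After GARS the cytosolic order by FPKM was SARS (89.9), IARS (67.6), TARS (66.8), AARS (57.4) and EPRS (46.4). IARS and TARS changed places between groups: IARS averaged 62.4 FPKM in shSPTLC2 and 72.8 FPKM in shCON, and TARS averaged 54.4 FPKM in shSPTLC2 and 79.1 FPKM in shCON. Abundant genes were called lower more often: of 2367 tested genes within the CPM range of the cytosolic set, 16.9% were called lower and 8.45% higher, and their median was -0.09.

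Splitting the cytosolic set by structure or by promoter letters gave similar medians in most cases. For reference, 9.00% of all tested genes were called lower, and 16.9% of the 2367 within the CPM range of the cytosolic set. The groups of the splits are small beside these. The 8 enzymes of the multisynthetase complex had a median of -0.29 with 3 called lower (EPRS, RARS and KARS), and the 12 outside it had a median of -0.32 with 6 called lower. By catalytic fold, 2 of 9 class I genes and 6 of 10 class II genes were called lower, with medians of -0.21 and -0.35, and EPRS holds both folds. The 6 genes whose promoters hold TGATGCAA had a median of -0.32, with TARS, AARS and NARS called lower. The 10 with a matched promoter lacking those letters had a median of -0.38, with 6 called lower (GARS, WARS, EPRS, SARS, RARS and KARS). Called and uncalled cytosolic genes were thus found on both sides of this split. The 4 with no matched promoter (DARS, LARS, VARS and YARS) had a median of -0.23, with 0 called lower. Each matched gene was searched in 1 promoter only. Without GARS and KARS, which serve both compartments, 7 of 18 were called lower.

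AIMP1, the scaffold among the members, had 39.8 and 43.3 CPM in shSPTLC2, against 46.0 and 53.3 CPM in shCON, and was not called (-0.26 ± 0.13, adjusted p = 0.166). The scaffold gene AIMP2 fell, with 31.4 and 30.1 CPM in shSPTLC2, against 47.5 and 49.1 CPM in shCON (-0.65 ± 0.12, adjusted p = 0.00202). EEF1E1, the remaining scaffold of the complex, overlapped between groups (0.09 ± 0.19). The 3 scaffolds thus differed among themselves in call.

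Mitochondrial synthetase genes went both ways. VARS2 (ENSG00000137411, chromosome 6, 30908242 to 30926459), for valine, rose, with 52.7 and 45.1 CPM in shSPTLC2, against 30.0 and 33.4 CPM in shCON (0.63 ± 0.13, adjusted p = 0.00392). CARS2 (ENSG00000134905, chromosome 13, 110641412 to 110713603), for cysteine, rose, with 67.3 and 63.6 CPM in shSPTLC2, against 49.8 and 49.6 CPM in shCON (0.40 ± 0.11, adjusted p = 0.0233). Neither gene's groups overlapped, and both were called after the GC content correction (0.52 and 0.41, adjusted p = 0.0126 and 0.0194). Leaving out shSPTLC2 replicate 1 ended the call of VARS2 (adjusted p = 0.112), and leaving out either replicate ended that of CARS2 (0.227 and 0.12). VARS2 shares 22.0% of its exon bases with GTF2H4 on the same strand, and CARS2 shares 3.12% with ING1 on the opposite strand, so reads there are uncertain.

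SARS2 (ENSG00000104835, chromosome 19, 38915266 to 38930896), for serine, fell, and its level was low. It had 29 and 25 counts in shSPTLC2, against 46 and 70 counts in shCON, or 1.97 and 1.63 CPM against 3.10 and 4.805 CPM. The groups did not overlap, and the log2 fold change was -1.13 ± 0.33 (adjusted p = 0.0253). The call was lost in DESeq2 and without shSPTLC2 replicate 1, shSPTLC2 replicate 2 or shCON replicate 2 (adjusted p = 0.123, 0.171 and 0.184 in edgeR). SARS2 shares 46.2% of its exon bases with another gene on the same strand (AC011455.2, with 0 counts) and 10.8% with MRPS12 on the opposite strand. The elongation factor gene EEF1G, which shares 99.9% of its exon bases in this way, had 0 counts in all libraries, so SARS2 counts are uncertain.

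Of the 13 mitochondrial genes that were not called, 8 had negative values, and values ran from -0.34 (RARS2) to 0.13 (MARS2). YARS2, for tyrosine, had 44.7 and 42.7 CPM in shSPTLC2, against 56.1 and 54.1 CPM in shCON (-0.33 ± 0.12, adjusted p = 0.0565). LARS2, for leucine, had 37.2 and 39.0 CPM in shSPTLC2, against 47.7 and 48.3 CPM in shCON (-0.33 ± 0.12, adjusted p = 0.0598). In both genes each shSPTLC2 library was below each shCON library, and both 95% intervals lay below 0 before adjustment. RARS2 (arginine), EARS2 (glutamate), IARS2 (isoleucine) and WARS2 (tryptophan) stood at -0.34, -0.29, -0.28 and -0.28, and HARS2 (histidine) and TARS2 (threonine) at -0.17 and -0.09. AARS2 (alanine), NARS2 (asparagine), PARS2 (proline), FARS2 (phenylalanine) and MARS2 (methionine) were slightly positive, from 0.04 to 0.13, and each overlapped between groups. Their precision was lower than that of the cytosolic genes: PARS2, at 105 and 145 counts in shSPTLC2 and 116 and 116 in shCON, had a 95% interval of -0.37 to 0.52.

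Setting the genes for the same amino acid side by side gave 17 pairs over 16 amino acids. The cytosolic value was the more negative in 13 of 17 pairs, and the median of cytosolic minus mitochondrial was -0.25. Among the 13 negative differences, the widest were those of proline (EPRS and PARS2, -0.61), valine (VARS and VARS2, -0.60) and cysteine (CARS and CARS2, -0.57). The difference was positive for serine (0.67), leucine (0.16), isoleucine (0.07) and tyrosine (0.05). HARS and HARS2 lie head to head on chromosome 5, with annotated starts 436 bases apart, and stood at -0.23 ± 0.11 and -0.17 ± 0.13. They share 437 exon bases on opposite strands, 5.56% of those of HARS and 11.7% of those of HARS2, so reads there could not be told apart without strand. In valine and cysteine the mitochondrial gene rose while the cytosolic gene was not called, and in serine both genes fell. These differences between genes are descriptions with no test, and pairs that share EPRS or FARS2 are not independent.

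**Figure D3:**
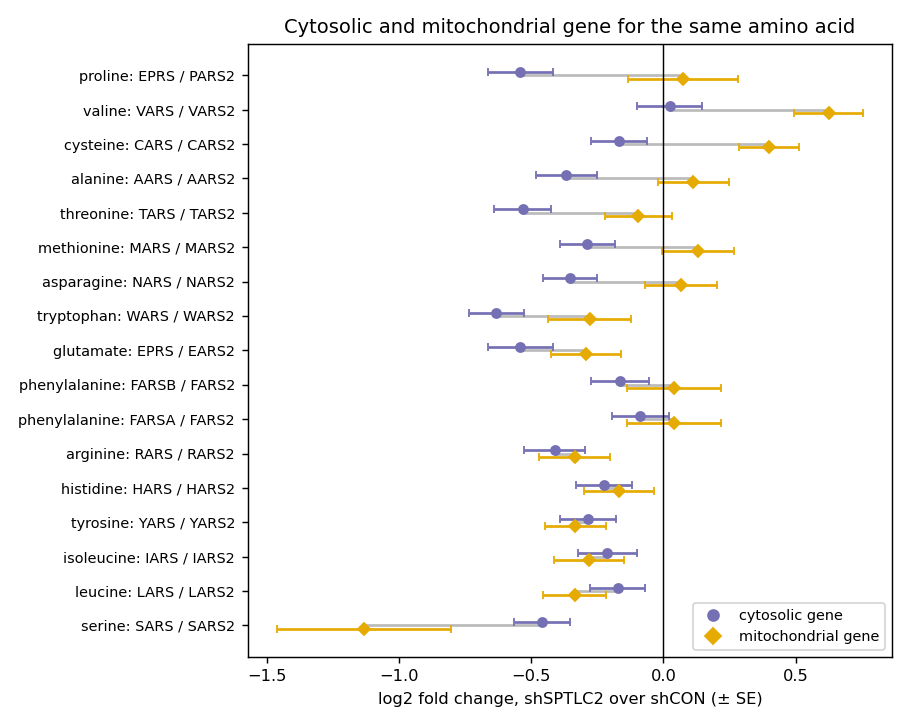
Log2 fold change (shSPTLC2 over shCON, ± SE) of the cytosolic gene (circle) and the mitochondrial gene (diamond) for each amino acid, joined by a line and ordered by their difference. The circle lies left of the diamond in 13 of 17 pairs, and serine, at the bottom, runs the other way.

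Other genes that handle charged tRNA or mature tRNA were compared as lists. Over all tested genes 9.00% were called lower and 10.4% higher. Of 6 tested genes in the list of cytosolic elongation factors, 4 fell, 0 rose and 2 were not called (EEF2 and EEF2K). EEF2K is not an elongation factor but the kinase that acts on EEF2. EEF1A1, which carries charged tRNA to the ribosome, had 8599 and 9502 CPM in shSPTLC2, against 13173 and 14508 CPM in shCON (-0.61 ± 0.13, adjusted p = 0.00503). EIF5A (-0.52 ± 0.12), EEF1B2 (-0.45 ± 0.12) and EEF1D (-0.34 ± 0.11) fell too, while EEF2 stood at -0.05 ± 0.12. EEF2K had the only positive value of the list (0.26 ± 0.13, adjusted p = 0.185), with both shSPTLC2 libraries above both shCON libraries. EEF1A1 has many processed copies in the genome, so its counts are uncertain. The calls of all 4 were lost when either shSPTLC2 library was left out, with adjusted p of 0.152 and 0.0565 for EEF1A1, and EEF1D also lost its call with library totals (0.0852) and without shCON replicate 2 (0.116).

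Of 10 mitochondrial translation factor genes, 2 fell, 1 rose and 7 were not called, and the list had a median of -0.10. These shares (20% lower, 10% higher) stand beside 9.00% and 10.4% of all tested genes. The elongation factor gene GFM1 (-0.50 ± 0.11, adjusted p = 0.00487) and the initiation factor gene MTIF2 (-0.39 ± 0.12, adjusted p = 0.0305) fell, and the release factor gene MTRF1 rose (0.61 ± 0.16, adjusted p = 0.0134). These 3 calls were lost when either shSPTLC2 library was left out, and those of MTIF2 and MTRF1 also in DESeq2 (adjusted p = 0.0571 and 0.0609), and MTIF2 with library totals (0.0632). The 3 subunit genes of the amidotransferase that makes glutaminyl tRNA in mitochondria (QRSL1, GATB and GATC) were not called, at -0.32, -0.22 and -0.24. Of 3 editing factor genes, DTD1, which removes D-amino acids from tRNA, fell (-0.41 ± 0.14, adjusted p = 0.049), and its call was lost in 8 of 12 alternatives, among them limma-voom (0.0534).

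Of 21 tRNA processing genes, 5 fell, 0 rose and 16 were not called, with a median of -0.15. The share called lower was 23.8%, against 9.00% of all tested genes. RTCB, the tRNA ligase, had 92.8 and 91.0 CPM in shSPTLC2, against 124 and 123 CPM in shCON (-0.43 ± 0.10, adjusted p = 0.00971). The ribonuclease P subunit genes POP1 (-0.41 ± 0.11) and POP4 (-0.43 ± 0.12) fell as well. The 3′ processing gene ELAC2 (-0.33 ± 0.10) fell too. So did the subunit gene RPP14 (-0.40 ± 0.13, adjusted p = 0.0466), which was not examined under the alternatives. The first 4 of these lost their calls when either shSPTLC2 library was left out, ELAC2 also with library totals (adjusted p = 0.0879) and POP4 also after the GC content correction (adjusted p = 0.0539).

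Of 15 genes of the eIF2 kinases and the ATF4 branch, 7 fell, 0 rose and 8 were not called, with a median of -0.33. The share called lower was 46.7%, against 9.00% of all tested genes. PPP1R15A, whose product restores eIF2, had 129.8 and 117 CPM in shSPTLC2, against 221 and 258 CPM in shCON (-0.95 ± 0.11, adjusted p = 7.03e-05). DDIT3 (-1.19 ± 0.18), TRIB3 (-0.78 ± 0.11) and the asparagine synthetase gene ASNS (-1.16 ± 0.22) had larger falls than any of the 20 cytosolic synthetase genes, and none of these 4 calls (0 of 4) was lost under the 12 alternatives. CHAC1, CEBPG and NUPR1 were the other called genes (-0.48 ± 0.13, -0.53 ± 0.11 and -2.44 ± 0.51). Their calls were not examined under the alternatives. NUPR1 had 13 and 6 counts in shSPTLC2, against 30 and 72 counts in shCON, so its value is uncertain. The ATF4 transcript itself had 549 and 470.5 CPM in shSPTLC2, against 608 and 673 CPM in shCON, and was not called (-0.33 ± 0.12, adjusted p = 0.0565). Both shSPTLC2 libraries were below both shCON libraries for ATF4. Messenger RNA levels do not measure the ATF4 protein, which is set largely by translation.

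**Figure D4:**
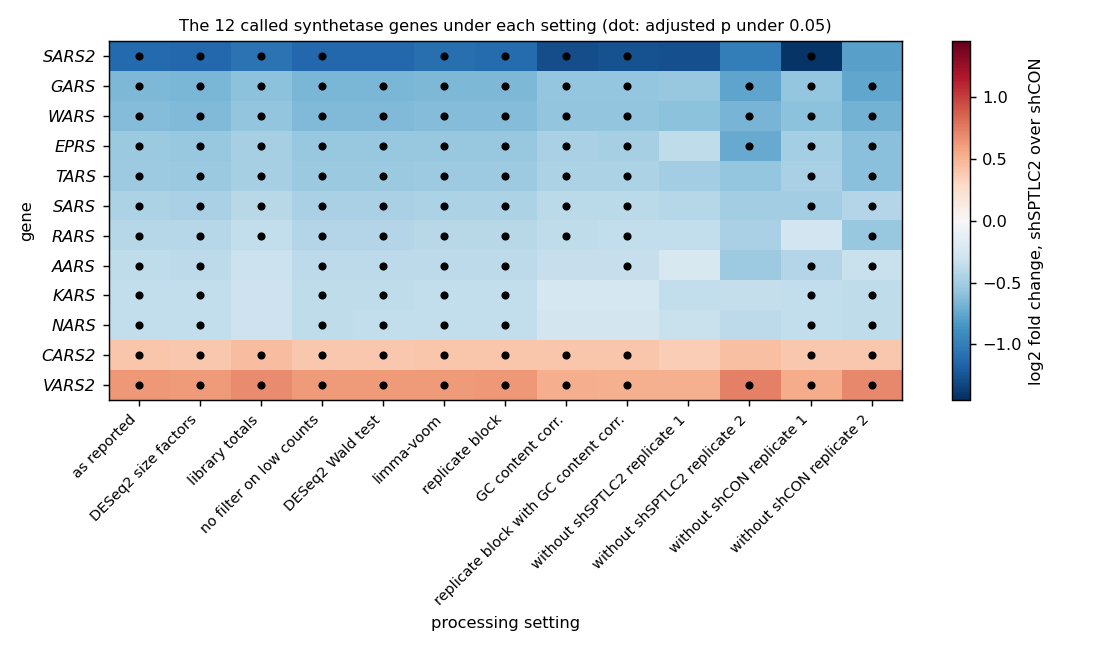
Log2 fold change (colour, shSPTLC2 over shCON) of the 12 called synthetase genes as reported and under 12 processing alternatives, with a dot where the adjusted p was under 0.05. The column without shSPTLC2 replicate 1 holds no dot, while no gene changes colour from blue to red or back.

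With library totals in place of TMM, 1927 genes were called higher and 1032 lower, against 1593 and 1378 with TMM, and 6 of the 9 cytosolic calls were kept. After the GC content correction 6 of the 9 were kept as well, and the medians were -0.26 for the cytosolic and -0.08 for the mitochondrial genes. Transcript GC content had a median of 47.7% in the cytosolic set and 51.2% in the mitochondrial set.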

How the data were processed

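Read counts per gene, whole numbers in the table the authors deposited, were used for 4 libraries (2 shSPTLC2, 2 shCON). The authors' FPKM table was used for levels between genes only. Within each library these values equal count over gene length times a constant, to within a relative 9.99e-15. Per the submitters' processing notes, HISAT2, StringTie and SAMtools were used with hg38. Which program counted the reads, and whether by strand, is not given in the sources used here. Every one of the 58735 genes agreed in ID, symbol and coordinates with GENCODE 29, which gave exon overlaps and GC content.

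Counts were tested in R 4.3.3 with edgeR 4.0.16: filterByExpr (minimum count 10, minimum total 15), TMM, robust quasi-likelihood F test (two-sided), no covariates, Benjamini-Hochberg over 15313 genes. Standard errors were obtained by dividing the size of each log2 fold change by the root of its F statistic. DESeq2 1.42.0 and limma 3.58.1 (voom) were alternatives, beside those in the closing section. The GC content correction used a lowess trend per library (span 0.3) as an offset. The script was tested on simulated data.

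The members and lists were chosen with earlier results of these data known. The rule named every member, SPTLC2, and up to 4 genes with the smallest adjusted p in each list (scaffolds, elongation factors, mitochondrial translation factors, amidotransferase, editing, processing, the ATF4 branch and cell markers). Others named, as members of short lists or counts, were chosen after their values were seen. The exact 95% binomial interval of a library's mitochondrial share was widest at 10.05% to 10.08%, and a gene at 0 counts could be at up to 3 counts, which is 0.195 to 0.206 CPM by library. Both cover counting error only. Replicates differed beyond sampling noise (chi-square p under 0.05 for 28.5% of genes in shSPTLC2 and 36.8% in shCON).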

Additional observations from a re-analysis of the deposited data

How the results depend on the processing

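The lowest count of a cytosolic gene in a library was 1127, and that of a mitochondrial gene was 25 (SARS2). DESeq2 called 1978 genes against 2971 in edgeR, and 0 mitochondrial synthetase genes lower against 1. Leaving out 1 library gave 640 to 4027 genes called, 0 to 13 cytosolic genes lower against 9, 0 to 3 mitochondrial genes lower against 1, 0 to 2 mitochondrial genes higher against 2, and a mitochondrial median of -0.23 to -0.067 against -0.13. The lowest counts came without shSPTLC2 replicate 1, which leaves 1 library in that group, assumed to vary like the other group. Without shCON replicate 2, 7 further members were called lower (DARS, IARS, MARS, YARS, IARS2, RARS2 and YARS2), and without shCON replicate 1, 3 (MARS, LARS2 and AIMP1). No cytosolic gene was called higher (0 of 20) under any of the 12 alternatives, and the cytosolic median ran from -0.35 to -0.24.

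Deviations of libraries with equal replicate numbers had a correlation of -0.013, so the numbers were not taken as pairs. With a replicate block 3307 genes were called, and all 12 called members were called. DESeq2 gave no adjusted p for PECAM1 and VWF, which are left out there. Signs changed only in genes that were not called. VARS stood at -0.17 with GC correction and -0.16 with a replicate block and GC correction. DTD2 was 0.018 with library totals. AARSD1 was 0.048 with library totals, 0.030 in limma-voom, 0.013 with a replicate block, 0.017 with GC correction and 0.037 with both. Over the libraries left out, VARS ran from -0.16 to 0.21, AARS2 from -0.020 to 0.24, FARS2 from -0.27 to 0.29, NARS2 from -0.016 to 0.14, PARS2 from -0.15 to 0.26, EEF1E1 from -0.21 to 0.43, DTD2 from -0.14 to 0.067, AARSD1 from -0.39 to 0.48 and FN1 from -0.079 to 0.40. The alternatives that leave out a library hold fewer samples, and for the others the cause was not tested.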

Other observations

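The transcripts that mitochondrial synthetases serve, those encoded by mitochondrial DNA, were higher or not called. This group was chosen after its values were seen. Of 13 protein genes of mitochondrial DNA, 4 rose, 0 fell and 9 were not called in edgeR. Over all tested genes 10.4% were called higher and 9.00% lower. The calls of genes of mitochondrial DNA were not examined under the alternatives. MT-CO1, a cytochrome oxidase subunit, had 27443 and 23444 CPM in shSPTLC2, against 11838 and 12930 CPM in shCON, a log2 fold change of 1.04 ± 0.14 (SE; adjusted p = 2.14e-04). MT-ND4, a complex I subunit, had 12223 and 11187 CPM in shSPTLC2, against 6321 and 7017 CPM in shCON (0.81 ± 0.13, adjusted p = 7.66e-04). In both genes the groups were far apart. MT-CYB (0.58 ± 0.13) and MT-ND5 (0.73 ± 0.19) rose too.

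Of 20 tested mitochondrial tRNA genes, 11 rose, 0 fell and 9 were not called, against 10.4% of all tested genes called higher. Some of the 11 rested on few counts in shCON: MT-TQ had 2 and 0, MT-TM 4 and 3, and MT-TD 3 and 5. MT-TN, the asparagine tRNA gene, had 108 and 90.6 CPM in shSPTLC2, against 38.1 and 35.8 CPM in shCON (1.43 ± 0.12, adjusted p = 4.4e-06). MT-TG, for glycine, had 19.2 and 14.2 CPM in shSPTLC2, against 2.90 and 2.75 CPM in shCON (2.56 ± 0.22, adjusted p = 4.4e-06). The extraction protocol in the labels discards small RNA, so these reads do not measure mature tRNA levels.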
